A study of Arabidopsis thaliana with 5 samples.

Results

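Deletions, duplications, insertions and inversions within the nuclear chromosomes were described in 5 PacBio genome libraries of Arabidopsis thaliana plants of the Col-0 ecotype. They were chosen from the unfiltered lists of structural variants by type and by having both positions on the same chromosome, 1 to 5. This kept 124 of 634 calls, with 25 and 8 in mutants 1 and 2, 37 and 33 in mutants 4 and 5, and 21 in a pool of plants. Because type and place chose them, their number and kind are a description. The other nuclear calls were 108 inverted duplications and 141 joins between chromosomes, and 261 calls touched an organelle. The pool held 97 of the inverted duplications and 25 of the joins. Mutants 1, 2, 4 and 5 held 3, 2, 4 and 2 inverted duplications and 32, 28, 30 and 26 joins.

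All plants grew from irradiated seeds and had been picked as mutants, so the calls give no rate over all seeds. Mutants 1 and 2 were Antarctic plants whose seeds had flown for 30 days at about 35 km. They were labelled M0 and taken whole and frozen at 44 and 45 days, with 10 mg of tissue each. Mutants 4 and 5 came from seeds given hydrogen, helium, oxygen and titanium beams of 10.62, 3.165, 1.08 and 0.735 rad, which simulate cosmic radiation. They were labelled M1, had been moved to soil, and gave a fresh leaf each at 45 days, with 10 and 20 mg. The pool joined 6 frozen Antarctic M0 plants of 17 to 21 days, with 15 mg of tissue. Exposure, generation, tissue and state at extraction cannot be told apart. No unirradiated library was analysed here.

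A deletion removes a stretch of a chromosome, a duplication adds a second copy beside or near the first, an insertion adds sequence at a point, and an inversion turns a stretch around. Ionising radiation breaks both DNA strands, and faulty rejoining of broken ends is a known source of all these changes. In plants, tandem repeats and transposable elements, which are dense around the centromeres, also change in copy number without radiation. A long read that crosses a changed site aligns in pieces, and such split reads were the evidence for each call.

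The 124 list entries held repeats of the same call. Entries of a library whose type matched and whose breakpoints lay within 500 bp were merged into 90 distinct calls, namely 18, 7, 28 and 20 in mutants 1, 2, 4 and 5 and 17 in the pool. Of these, 26 were listed more than once. Reads given over several entries are sums, and whether repeat entries share reads was not tested. Distinct calls that matched over libraries were joined into 76 events, which were 29 insertions, 19 deletions, 15 inversions and 13 duplications. Chromosomes 1 to 5 carried 20, 14, 17, 8 and 17 events. Positions below are printed as the lists give them in TAIR10, and whether they count from 0 or 1 was not stated.

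Read support was low. A list entry had 5 to 10 split reads, and 70 of 124 entries (56.5%) had 5 or 6. Entries of inverted duplications also reached 10 reads, and those of joins between chromosomes reached 77. In the 5 libraries the median was 6 to 7 reads for distinct calls of the 4 types and 6 to 11 for other nuclear calls, a mean difference of -2.6 reads that was negative in 4 of 5 libraries and 0 in the pool (exact two-sided sign-flip permutation test, p = 0.125, where 0.0625 was the smallest possible). The positions of 46 entries were labelled precise, those of 75 imprecise, and 3 insertions were unresolved. Precise positions made up 59.5% of deletion entries, 37.5% of duplication entries, 24.0% of inversion entries and 23.7% of insertion entries. Over distinct calls the precise share averaged 28.2% against 37.6% for other nuclear calls, lower in 3 of 5 libraries (exact sign-flip permutation, p = 0.438).

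Insertions and deletions were the most frequent entries, with 38 and 37, followed by 25 inversions and 24 duplications. Mutant 1 had 9 deletions, 6 duplications, 5 insertions and 5 inversions. Mutant 2 had 1, 2, 3 and 2 in the same order. Mutant 4 led in insertions, with 9, 5, 15 and 8, and mutant 5 led in deletions, with 15, 7, 8 and 3. The pool had 3, 4, 7 and 7.

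**Figure D1:**
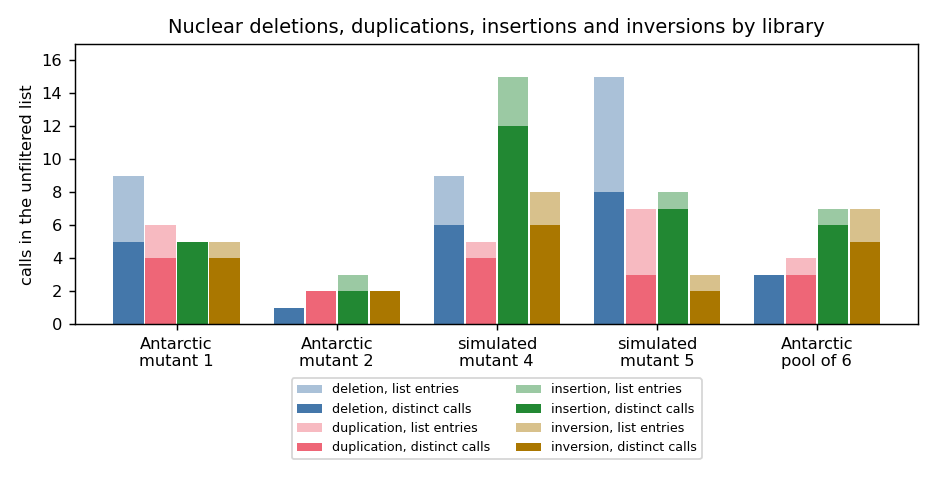
Entries of each type in the unfiltered list of each library (y axis, number of calls; pale bars), with distinct calls after repeats were merged as the solid part of each bar. Mutant 4 has 15 insertion entries and mutant 5 has 15 deletion entries, while no type exceeds 3 entries in mutant 2.

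The first comparison was between the exposures, over the 2 single-plant libraries of each. Antarctic plants had 16.5 ± 12.0 list entries (SD, n = 2), repeats included, and simulated-radiation plants had 35.0 ± 2.83 (SD, n = 2). The counts of 25 and 8 did not overlap those of 37 and 33, and p was 0.333 for the difference of 18.5 (exact permutation of libraries, two-sided), the smallest p that 2 libraries against 2 allow. With repeats merged the difference was 11.5 calls, and without mutant 2 it was 10.0 entries. The whole unfiltered lists, of all types and places, did overlap, with 112 and 94 calls for mutants 1 and 2 beside 141 and 105 for mutants 4 and 5. Insertions, with 5 and 3 against 15 and 8, also did not overlap (exact permutation p = 0.333). Deletions, duplications and inversions overlapped between exposures, each with an exact permutation p of 0.667. By length, entries under 100 bp averaged 4.0 and 8.5. Those of 100 bp to under 1 kb averaged 5.5 and 14.0, and those of 1 to 100 kb averaged 4.0 and 9.5. Entries over 100 kb averaged 3.0 and 2.5. In the same order the differences were 4.5, 8.5, 5.5 and -0.5 entries, and 4.0, 4.5, 3.0 and -0.5 calls with repeats merged. Depth per library was not in the lists and its part in these counts was not tested.

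Predicted lengths ran from 33 bp to 26069582 bp. There were 28 entries under 100 bp, 42 of 100 bp to under 1 kb, 32 of 1 to 100 kb and 19 over 100 kb, and the 3 unresolved insertions had no length. Median lengths were 689 and 399 bp in mutants 1 and 2 and 524 and 202 bp in mutants 4 and 5, and the pool's was longest, at 5320 bp. The types filled different lengths. No duplication or inversion entry was under 100 bp and no insertion entry was over 1613 bp, while 12 of 25 inversion entries spanned more than 100 kb.

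**Figure D2:**
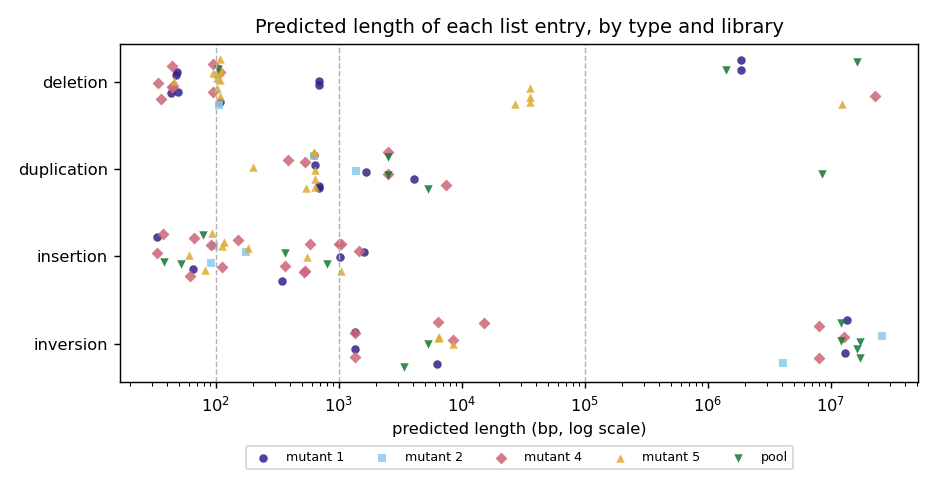
Predicted length (x axis, bp on a log scale) of every list entry with a length, by type (y axis, with random vertical spread) and library (marker); dashed lines mark 100 bp, 1 kb and 100 kb. Insertions end at 1613 bp, deletions gather at 34 to 109 bp, and inversions fall in a group of 1340 to 15131 bp and a group above 4056046 bp.

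Deletions were mostly very short. Of 19 deletion events, 11 were at most 109 bp, and these fell into 5 of 34 to 49 bp and 6 of 94 to 109 bp. All 15 entries of the second group were labelled precise, none of the 6 events met a protein-coding gene, and 3 of them lay in gene-poor windows, defined as 500 kb windows with under 50% of their chromosome's median number of protein-coding genes. The best supported was a deletion of 108 bp at chr1:17639368-17639476, between annotated genes, with 6 entries and 41 reads in all. A deletion of 102 bp at chr3:13022636-13022738 was in mutant 5 only and had 26 reads over 3 entries. The deletion of 36 bp at chr3:9106882-9106918 in mutant 4, with 13 reads over 2 precise entries, was the short deletion with most reads among those in a protein-coding gene of a single library. It lay in RLP40, which encodes a receptor-like protein, a class with known members in pathogen perception, and in the overlapping gene AT3G24929.

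Between the short deletions and the 5 over 100 kb lay 3 others. A deletion of 691 bp in mutant 1, at chr2:891938-892629, is described with its locus below, and 2 were in mutant 5 on chromosome 1. Of those in mutant 5, the shorter was listed as 27000 bp at chr1:14511721-14538721 with 7 reads, and the longer as 36017 bp at chr1:14545704-14581721 with 21 reads over 3 entries. Their breakpoints all lay in gene-poor windows, and neither span met an annotated gene.

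Of the 13 duplication events, 6 met a protein-coding gene, 3 met only a pseudogene and 4 met no annotated gene. Protein-coding genes held 38.5% of their 26 breakpoints, beside 38.2% over all events. Gene-poor windows held 50.0%, against 26.3% for deletions, 17.2% for insertions and 16.7% for inversions. These windows were 37 of 240, or 15.4%. Both ends of a short duplication were counted though they mostly share a window, while an insertion was counted once. These shares are therefore not shares of separate events. The duplication of 7388 bp at chr5:18863145-18870533 in mutant 4 met AT5G46510 and AT5G46520, neighbouring genes that the gene table also names VICTL and VICTR, of the NLR class of intracellular disease-resistance proteins. It rested on a single entry with 5 reads. A duplication of 541 bp at chr5:13434416-13434957 in mutant 5 lay in EXT13, which encodes an extensin, a structural protein of the cell wall, and had 7 reads. A duplication of 1657 bp at chr1:22059532-22061189 in mutant 1, with 8 reads, met AT1G59920 and AT1G59930.

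Insertions ranged from 33 to 1613 bp, and 12 of 29 events fell in a protein-coding gene. The pool's unresolved insertion at chr3:18827083 had the most reads among the insertions in a protein-coding gene of a single library, with 17 over 2 entries. It lay in U1-70K, which encodes a protein of the U1 particle that marks the start of introns for splicing. Mutant 1 had an insertion of 1014 bp at chr1:25116409 in SWEETIE, a gene of sugar metabolism, with 5 reads. The pool had an insertion of 79 bp at chr5:26480290 in NAC105, a transcription factor gene of water-conducting vessel cells, and mutant 4 had an insertion of 33 bp at chr3:21995093 in LAP3, a gene of pollen wall development. Each of those had 5 reads. An insertion of 1470 bp at chr4:9192432 in AT4G16240 of mutant 4 had 6 reads. In mutant 5, insertions lay at chr1:7675927 in AT1G21864, with 10 reads over 2 entries, and at chr2:17102934 in AT2G40980, with 5 reads. Of the 76 events, only the pool's insertion of 52 bp at chr3:14204874 lay within 5 kb of another kind of nuclear call. The nearest, at 318 bp, was a join to chromosome 2 in the pool. Joins to chromosome 2 within 5 kb of this insertion were listed in all 5 libraries, with up to 76 reads in mutants 1 and 4.

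Inversions came in a shorter and a longer group, 6 events of 1340 to 15131 bp and 9 of 4056046 to 26069582 bp. A whole inversion leaves a junction at each end, and the lists mark these as a join of plus to plus strands or of minus to minus strands. Both kinds of join were listed for 2 of the 15 events, at chr2:890597-891937 and chr1:2457002-2463349, and in the second of these the kinds came from different libraries. None of the 9 long inversions had both: 4 had the plus join and 5 the minus join. The longest joined chr5:129494-26199076 in mutant 2 with 6 reads and had an end in AT5G01320 and an end in AT5G65550. The inversion with most reads in an entry, 10, spanned chr5:14551926-22538413 in mutant 4 and ended in no annotated gene. A shorter inversion of the pool, 3354 bp at chr1:20940703-20944057 with 6 reads, met AT1G55980 and AT1G55990.

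The 15 events over 100 kb were 9 inversions, 5 deletions and 1 duplication, with 6 in the pool, 3 and 2 in mutants 1 and 2, and 3 and 1 in mutants 4 and 5. At least 1 end met a protein-coding gene in 12 of them, and both ends did in 6. A join listed as a deletion of 22977230 bp in mutant 4 ended in ATTPS6, of the trehalose-6-phosphate synthase family of sugar signalling, and was precise with 6 reads. A join listed as a deletion of 12256630 bp on chromosome 3 of mutant 5 ended in AT3G19520 and in PAD1, which encodes an alpha subunit of the 20S proteasome. Mutant 4's inversion of 12807269 bp on chromosome 1 ended in CRF10, a transcription factor gene of the cytokinin response factor group, and mutant 2's inversion of 4056046 bp on chromosome 2 began in PIRL6, of a leucine-rich repeat family. The longest duplication, 8443691 bp on chromosome 1 of the pool with 5 reads, ended in AT1G60900. The list type describes the join that reads crossed, and no list gives the copy number of the stretch between the ends.

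The place of breakpoints was set beside length. Of the 123 breakpoints of the 76 events, with 1 for each insertion, 47 (38.2%) lay in protein-coding genes, which cover 54.1% of the chromosomes. The share was 37.5% under 100 bp, 16.7% at 100 bp to under 1 kb, 38.7% at 1 to 100 kb and 60.0% over 100 kb. Gene-poor windows held 8.33%, 47.2%, 38.7% and 6.67% of breakpoints in the same order. Both ends of a short deletion, duplication or inversion mostly share a window, so the breakpoints are not separate events. Pseudogenes held 8.13% of the breakpoints and 8.78% of the chromosome length.

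Breakpoints of calls over 100 kb were more often in protein-coding genes than those of shorter calls in 5 of 5 libraries, a comparison chosen after the values were seen and given as a description. In mutant 1 they were 3 of 6 against 7 of 25, in mutant 2 they were 3 of 4 against 1 of 8, and in mutant 4 they were 2 of 6 against 11 of 38. Mutant 5 had 2 of 2 against 12 of 31, and the pool had 8 of 12 against 5 of 16. Breakpoints at the same place were counted each time. In mutant 5, 3 of the shorter calls met AT4G01985, and both breakpoints over 100 kb were of a single call. In the pool, 4 calls on chromosome 3, long and shorter, shared edges. The smallest gap was in mutant 4, with 33.3% against 28.9%. The mean difference was 37.1 percentage points. For gene-poor windows it was -28.1 points, with the long calls lower in 4 of 5 libraries. Among precise calls, in 4 libraries, these were 27.3 and -7.98 points.

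**Figure D3:**
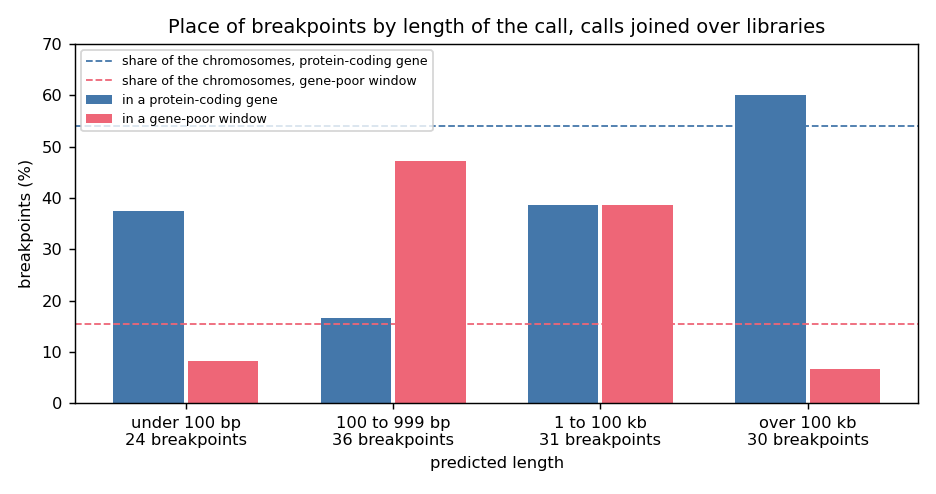
Share of event breakpoints (y axis, percent) in protein-coding genes and in gene-poor windows for 4 classes of predicted length (x axis, with the number of breakpoints); dashed lines give the share of chromosome length in protein-coding genes, 54.1%, and of windows that are gene-poor, 15.4%. Calls of 100 bp to under 1 kb are lowest in genes, 16.7%, and calls over 100 kb are highest, 60.0%.

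Over all distinct nuclear calls, 39.0% of breakpoints lay in protein-coding genes. Per library the 4 types had 29.5% to 46.4% in genes and averaged 36.8%, other nuclear calls averaged 34.8%, and the difference of 2.02 points was positive in 3 of 5 libraries (exact sign-flip permutation, p = 0.562). Its direction turned under several settings. It was -13.6 points in the authors' filtered lists (exact permutation p = 0.0625), -12.0 points with 1 kb added at each side of genes (exact permutation p = 0.0625), -9.77 points among precise calls (exact permutation p = 0.438) and -0.0783 points without mutant 5. The filtered lists kept 121 of the 124 calls of the 4 types but only 291 of all 634 calls.

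Of the 76 events, 34 met a protein-coding gene, 9 met only a pseudogene, 2 met only an RNA gene and 31 met no annotated gene. The events met 43 of 27444 protein-coding genes, or 0.157%. Of 10950 genes with a name that could be compared they met 14, of which 3 had a neighbour of like name within 10 genes, namely RLP40 beside RLP39, RLP41 and RLP42, and the pair AT5G46510 and AT5G46520. Among all named protein-coding genes 14.3% had such a neighbour. Only the duplication on chromosome 5 met both genes of a like-named pair. Among events not over 100 kb, 8 met 2 or more protein-coding genes, and pairs without comparable names could not be judged. By family, the events met 2 of 49 NLR genes, 1 of 141 receptor-like protein or kinase genes and 1 of 58 extensin, proline-rich or glycine-rich genes. None of 31 F-box, 13 pentatricopeptide repeat, 250 cytochrome P450, 119 ubiquitin or 5 elongation factor genes named as such in the table was met, nor any of 19 genes of DNA double-strand break repair. Families were read from names, so genes without a name were in none of these counts. Of the 43 genes met, only 14 had a name that could be compared. Whether the genes met without such a name belong to these families was not tested.

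Several calls fell at the same place. Breakpoints at most 5 kb apart were chained into 83 loci, where a call over 100 kb counts at each end. Of these, 30 held 2 or more entries, 13 held 3 or more, and 11 held calls of more than 1 library. At 4 loci more than 1 type met.

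The first was at chr2:890593-892629, where no gene is annotated and mutants 1 and 4 had 8 entries. Counted from the first breakpoint, mutant 1 had a duplication from 0 to 689 bp, an inversion from 1 to 1348 bp and a deletion from 1345 to 2036 bp. Mutant 4 had the inversion alone, with both of its joins, from 1 to 1346 bp and from 2 to 1349 bp. The deletion thus began where the inversion ended, and the duplicated and deleted stretches, of 689 and 691 bp, were of nearly the same length. Each entry had 6 to 9 reads and all were imprecise.

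The second was in AT4G01985 of mutant 5. An insertion of 183 bp, a deletion of 46 bp and a duplication of 202 bp lay within 517 bp, with 5, 5 and 6 reads and imprecise positions.

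The last pair of loci were joined to each other in the pool. A deletion join ran from chr3:5544877 to 21761742 and an inversion join from chr3:5544888 to 21767065, both beginning in ABCG29, which encodes an ABC transporter. The far ends enclosed a stretch that was itself listed as an inversion of 5322 bp and as a duplication of 5320 bp. It held AT3G58860, AT3G58875 and SADHU10-1, a retrotransposon copy of the SADHU family annotated as a pseudogene. Each of these 4 calls had 6 reads and was imprecise.

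**Figure D4:**
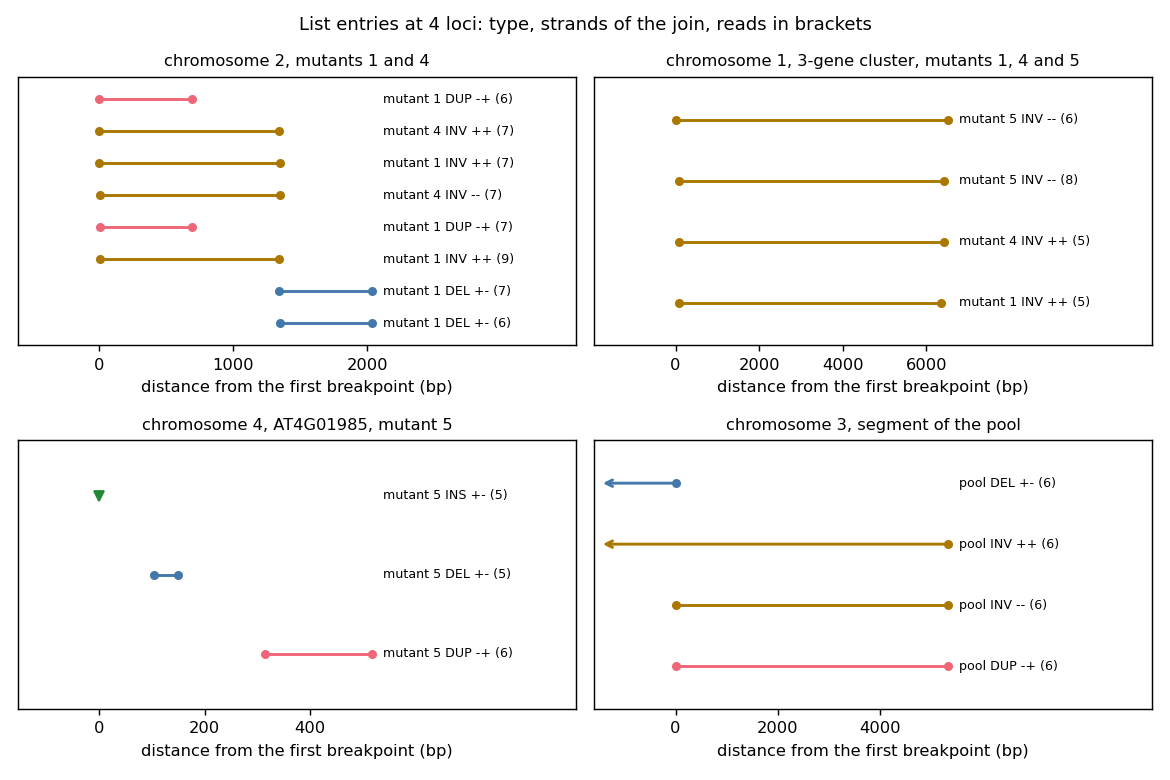
List entries at 4 loci, drawn as a line between breakpoints against distance from the first breakpoint (x axis, bp), with insertions as triangles and arrows for joins that leave to ABCG29, elsewhere on the chromosome; labels give library, type, strands and reads. On chromosome 2 the deletions start where the inversions end, and in the pool 4 entries share the edges of a stretch of about 5320 bp.

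Recurrence over libraries was not used in choosing the calls. By list entries, the other nuclear calls were mostly joins between chromosomes in mutants 1, 2, 4 and 5 and mostly inverted duplications in the pool. A partner in another library was held by 25 of 90 distinct calls, or 27.8%, beside 29.0% of all distinct nuclear calls. Per library the share was 33.3%, 42.9%, 32.1% and 30.0% in mutants 1, 2, 4 and 5 and 5.88% in the pool, against 45.5%, 55.6%, 39.4%, 52.0% and 11.2% of other nuclear calls. It was lower in 5 of 5 libraries, with a mean difference of -11.9 points (exact two-sided sign-flip permutation, p = 0.0625, the smallest possible). A shared event gives a partner to each library that holds it, and the 25 calls came from 11 events. The 5 differences are therefore not independent, as the test assumes them to be. Its size moved with the matching, to -2.86 points with a window of 100 bp (exact permutation p = 0.625) and to -1.11 points with overlap of 50% of each span (exact permutation p = 0.812). It was -25.0 points without mutant 4 and -39.1 points at 8 or more reads. The direction also depended on what stood on the other side. Against inverted duplications alone the difference was 28.8 points (exact permutation p = 0.0625). Mutants 1, 2, 4 and 5 had only 2 to 4 such entries each, and the pool had 97. Against joins between chromosomes alone the difference was -23.8 points (exact permutation p = 0.0625). Against all other nuclear calls it was 24.7 points in the filtered lists (exact permutation p = 0.0625) and 9.36 points among precise calls (exact permutation p = 0.125). The filtered lists kept 121 of the 124 calls of the 4 types but only 291 of all 634 calls.

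Of the 76 events, 11 were in more than 1 library, 3 of them in 3 libraries and 8 in 2. They were 3 deletions, 2 duplications, 3 insertions and 3 inversions. Recurrence crossed the exposures in 8 of them, and the other 3 were in both simulated-radiation plants. None of the 15 events over 100 kb recurred, while 5 of 17 events of 1 to 100 kb did, 2 of 24 of 100 bp to under 1 kb and 3 of 18 under 100 bp. In 10 of the 11 the starts lay within 20 bp of each other. Mutants 1 and 4 shared 4 events, 22.2% of the first and 14.3% of the second, and mutants 4 and 5 also shared 4, 14.3% and 20.0%. Mutant 2, with only 7 events, shared 2 with mutant 1 and 2 with mutant 5, each 28.6% of its own. The pool shared 1 event, with mutant 4.

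**Figure D5:**
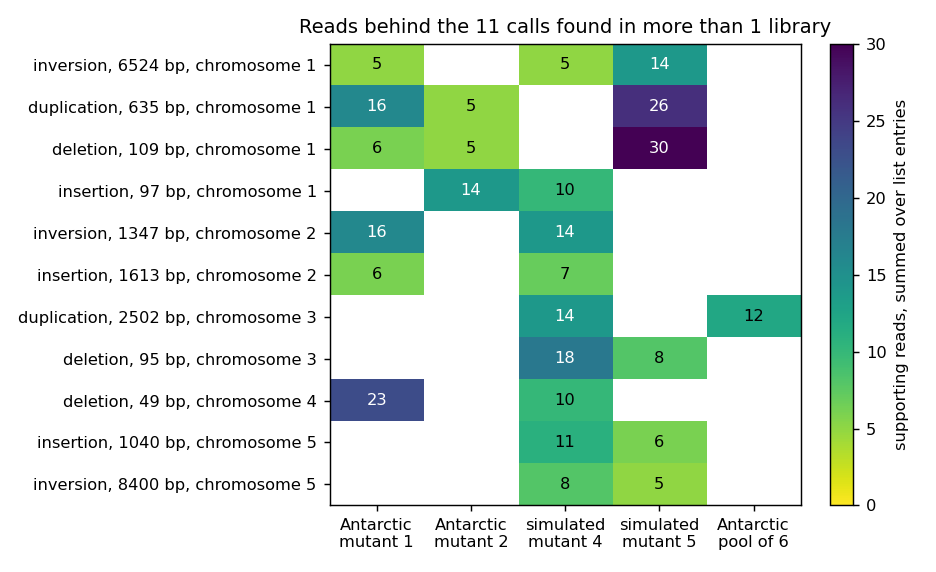
The 11 events found in more than 1 library (rows, with type, longest predicted length and chromosome) by library (columns); colour and number give supporting split reads summed over list entries, and white cells have no call. The highest value is 30 reads, for the 108 bp deletion in mutant 5, and the pool appears in a single row.

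The 3 events in 3 libraries were all on chromosome 1. The duplication of 634 bp at chr1:16737793-16738427 had 16 reads in mutant 1, 5 in mutant 2 and 26 in mutant 5, summed over 8 entries, and met no annotated gene. The deletion of 108 bp at chr1:17639368-17639476 had 6, 5 and 30 reads in the same 3 plants. These shared plants spanned both exposures, and neither call was listed in mutant 4 or the pool. The inversion of 6347 bp at chr1:2457002-2463349 had 5 reads in mutant 1, 5 in mutant 4 and 14 in mutant 5, with starts spread over 90 bp. Its span met AT1G07920, AT1G07930 and AT1G07940, numbered in sequence. None of these genes had a name that could be compared, so whether they are tandem copies was not tested. Mutants 1 and 4 had the plus join and mutant 5 the minus join.

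In protein-coding genes, 4 events recurred, the inversion above and 3 insertions. An insertion of 91 bp at chr1:29345245 in AT1G78040 had 14 reads in mutant 2 and 10 in mutant 4, so it was in a plant of each exposure. An insertion at chr2:13959056, in AT2G32905 and AT2G32910, had 6 reads in mutant 1, with a length of 1613 bp, and 7 reads in mutant 4, where it was unresolved. The insertion at chr5:2610123 in BIM1, a transcription factor gene of brassinosteroid hormone signalling, had 11 reads in mutant 4 and 6 in mutant 5, with lengths of 1007 to 1040 bp.

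The other recurrent calls lay outside protein-coding genes. A duplication of 2502 bp at chr3:1959228-1961730 over the pseudogene AT3G06433 had 14 reads in mutant 4 and 12 in the pool. A deletion of 94 bp at chr3:11354159-11354253 had 18 reads in mutant 4 and 8 in mutant 5, with the same start in all 3 entries. A deletion of 47 bp at chr4:6666176-6666223, in the RNA gene AT4G02885, had 23 reads in mutant 1 and 10 in mutant 4. The inversion of 8398 bp at chr5:11194464-11202862, over the pseudogene AT5G29562, had 8 reads in mutant 4 and 5 in mutant 5. The inversion at chr2:890597-891937, described above, had 16 reads in mutant 1 and 14 in mutant 4.

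The remaining 65 events were each in a single library, 16 in the pool, 12 and 4 in mutants 1 and 2, and 19 and 14 in mutants 4 and 5. A call absent from a list can mean too few reads, and with 5 reads as the lowest number listed and no depth given, absence could not be told from low coverage.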

How the data were processed

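Genomic DNA was sequenced as 5 PacBio Sequel libraries with 10 kb inserts, and structural variants were called with NGMLR and Sniffles, per the labels and the series' design text. Neither tool's version nor its settings were stated in the labels. Per the submitters' processing notes the build is TAIR10. Per library the authors deposited a full list and a filtered list, with positions, type, predicted length and the count of supporting split reads, which was not normalized. The filtered lists held 121 of the 124 calls, without the 3 unresolved insertions, beside 291 of all 634 calls. The caller's best positions were used. Depth per library is unknown, so no interval or rate was computed. Libraries of a group are separate plants.

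Calls of equal type and chromosome matched if each breakpoint was at most 500 bp from its counterpart, with insertions matched on their start. Genes came from a RefSeq table of TAIR10.1 and cover gene bodies, introns included. Overlaps rest on both builds having the same nuclear positions, which was not tested. For calls over 100 kb only the ends were used. The table holds no proteins, so tandem copies were sought as like-named neighbours within 10 genes, in place of the planned protein identity, and no sequence is printed. Exposures were compared by exact permutation of libraries, and calls by exact sign-flip permutation over 5 libraries, with no adjustment for the number of tests. Matching and tests were tested on simulated lists. Python 3.11.15, pandas 2.3.3, numpy 2.4.6 and matplotlib 3.10.9 were used.

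Genes named were those of recurrent calls, of loci with 3 or more calls, of the longest and best supported call of each type, of up to 5 private genic calls of each type, and of fixed families. Ends of other long calls and the genes NAC105 and LAP3 were named after their values were seen, as were the deletions of 102, 27000 and 36017 bp. Members and lists were chosen with earlier results of these data known.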

Additional observations from a re-analysis of the deposited data

How the results depend on the processing

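Across the planned and added alternatives, 135 values kept their direction or, for counts, stayed near the reported count, and 16 reversed or fell to 0; the cause was not tested. No test could reach 0.05 with these libraries, so their p-values say nothing of stability. The filtered lists held 121 of the 124 calls of the 4 types and 291 of all 634 calls. In them the partner share of the 4 types against other nuclear calls turned to 24.7 points and the gene share to -13.6 points. Among precise calls these were 9.36 and -9.77 points, the inversion difference between exposures was 0.0 and that over 100 kb was 0.5. Against inverted duplications only, of which mutants 1, 2, 4 and 5 had 2 to 4 entries each, the partner share was 28.8 points. With 1 kb added to genes the gene share was -12.0 points. At 6 or more reads the duplication difference was 0.0, and at 8 or more it was -1.0, with 0.0 over 100 kb. Leaving out a library in turn gave -0.5 to 4.5 for inversions, lowest without mutant 4, 0.0 to 4.0 for duplications, lowest without mutant 2, and -2.0 to 1.0 over 100 kb, positive without mutant 1 and without mutant 5. The gene share ran from -0.0783 points, without mutant 5, to 4.23. The difference in all calls ran from 10.0, without mutant 2, to 27.0, the partner share from -25.0, without mutant 4, to -11.3 points, and the gene share of long against shorter calls from 30.8 to 45.3 points.

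With repeats merged the difference in all calls was 11.5, as at 6 or more reads, and at 8 or more it was 7.5. Matching within 100 or 1000 bp gave the same 76 events with 11 recurrent. Overlap by 50% of each span, with deletions, duplications and inversions free to match one another, gave 66 with 14. Added after seeing the data, matching insertions by both positions gave 77 events with 10 recurrent, and requiring equal strands of inversions gave 78 with 11, of which 2 were in 3 libraries. Chains of 1 or 10 kb gave 30 loci with several calls each. The tandem rule by protein identity, at a looser and a stricter bound, was not run, since no proteins were used here. No paired analysis was possible because the groups share no replicate numbers. With 5 to 10 reads a call and unknown depth, a call absent from a library could not be told from low coverage.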
